A study of Mus musculus with 48 samples.

Results

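The genes of 9 organic ion and drug transporters were followed in the mouse kidney around the clock: Slc22a2, Slc22a6, Slc22a8, Slc22a12, Slc47a1, Abcc2, Abcc4, Abcb1a and Abcg2. They were taken by symbol, from a list made with earlier results of these data known. All 9 were present in both assays, of 12927 genes listed in either assay and 12423 listed in both, and all 9 passed the filter that left 11863 genes for testing (a median of at least 0.5 RPKM in both assays). Kidneys came from untreated male C57BL/6JRj mice aged 11 to 12 weeks, kept in a light-dark cycle with lights on at Zeitgeber time (ZT) 0 and off at ZT12. They were collected at 12 timepoints, every 2 h from ZT0 to ZT22, with 2 replicates per timepoint. Each replicate was a lysate pool from 2 mice, and each of the 24 pools gave 1 RNA-seq library and 1 RPF-seq library of ribosome-protected fragments (footprints).

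These transporters carry drugs, toxins, urate and metabolites across the epithelium of the proximal tubule. Uptake carriers of the SLC22 family in the basolateral membrane bring organic cations (Slc22a2, the protein OCT2) or organic anions (Slc22a6 and Slc22a8, the proteins OAT1 and OAT3) from blood into the cell. On the luminal side, Slc47a1 (MATE1) exchanges organic cations for protons, Slc22a12 (URAT1) takes urate back from the filtrate, and ATP-driven pumps export anionic conjugates (Abcc2 and Abcc4, the proteins MRP2 and MRP4), bulky hydrophobic drugs (Abcb1a, a P-glycoprotein) or urate and xenobiotics (Abcg2, the breast cancer resistance protein).

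The tissue carried its defining markers. All 10 proximal tubule markers were listed in both assays, while none of 5 adrenal cortex markers was listed. Of other cell types, all 5 hepatocyte markers were listed, with a summed RNA level of 1161 to 1551 RPKM. Cyp2e1 made up 91.0% of this sum, and without Cyp2e1 it was 91.3 to 154 RPKM. Of 4 fat markers 3 were listed in RNA-seq (98.5 to 158 RPKM summed) and all 4 in RPF-seq, and of 5 blood markers 4 in either assay (54.4 to 373 RPKM of RNA summed). The fat marker Adipoq had only 1.155 ± 0.977 RPKM of RNA. Its 24-h fold was 3.58 for RNA (FDR 0.0102 by limma) and 5.03 for footprints (FDR 0.000411). Fabp4, which made up 99.1% of the summed RNA of the fat markers tested, had 1.15-fold for RNA (FDR 0.193) and 1.30-fold for footprints (FDR 0.0986). The part of these cell types in the transporters' profiles was not tested. The 8 core clock genes used as a check all oscillated, with a median peak-to-trough fold of 14.7 (RNA) and 14.1 (footprints). Relative depth, read from the steps between low values, ran from 0.598 to 2.04 in RNA-seq and from 0.701 to 1.58 in RPF-seq, with the median library as 1, and replicate libraries correlated over genes with r of at least 0.984 in RNA-seq and 0.978 in RPF-seq. Depth was not even over the day, with a median of 1.14 in the light phase and 0.813 in the dark phase for RNA-seq, and 1.18 and 0.910 for RPF-seq. Its part in the daily profiles was not tested.

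Levels are given in RPKM, which corrects for depth and coding length, and so may be compared between genes. Slc22a12 had by far the most RNA of the 9 transporters, 1174 ± 146 RPKM (SD, n = 24 libraries), with a lowest value of 825, a median of 1199 and a highest of 1385. It exceeded Slc22a6, the next in order with 571 ± 68.9 RPKM, in 24 of 24 libraries without overlap, and stood at rank 58 of the 11863 genes. In footprints the order changed. Slc22a6 led with 869 ± 83.6 RPKM, followed by Slc22a8 with 560 ± 85.7, and Slc22a12 came only in place 6 with 361 ± 49.9 RPKM, its libraries running from 255 to 481. Slc22a12 thus made up 36.9% ± 2.8 of the summed RNA-seq RPKM of the 9 transporters but 11.3% ± 1.4 of their summed RPF-seq RPKM.

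**Figure D1:**
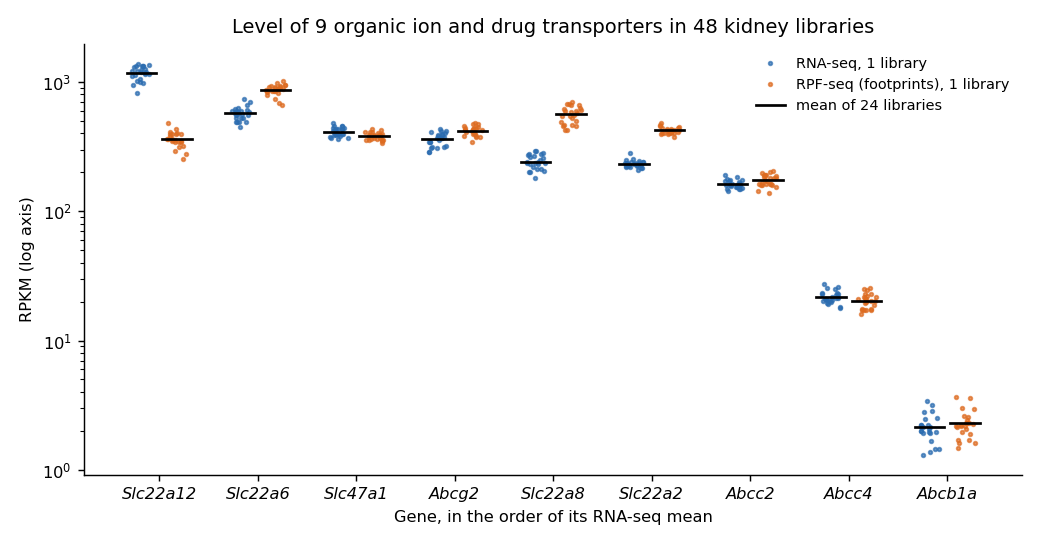
RPKM on a log axis of the 9 transporters in each of 24 RNA-seq libraries (blue) and 24 RPF-seq libraries (orange), with the mean of 24 libraries as a black bar. Slc22a12 lies highest in RNA-seq, near 1174 RPKM, but only near 361 RPKM in RPF-seq, while Slc22a8 and Slc22a2 are higher in RPF-seq than in RNA-seq.

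The other transporters spanned a wide range. The cation exporter Slc47a1 had 412 ± 33.1 RPKM in RNA-seq and 380 ± 24.8 in RPF-seq, and the urate and drug pump Abcg2 had 359 ± 42.9 and 419 ± 33.9. The anion uptake carrier Slc22a8 had 242 ± 31.0 RPKM of RNA and the cation uptake carrier Slc22a2 had 233 ± 15.4. These neighbours did not differ beyond their spread, since Slc22a8 was higher in 13 of 24 libraries. In footprints Slc22a2 had 421 ± 24.9 RPKM and was higher than its neighbour Abcg2 in 11 of 24 pools, and Slc47a1 was higher than Slc22a12 in 17 of 24, so these neighbours were not separated either.

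The ABC pumps for conjugates and hydrophobic drugs were the lowest. Abcc2 had 162 ± 11.9 RPKM in RNA-seq and 173 ± 17.8 in RPF-seq. Abcc4 followed with 21.8 ± 2.4 and 20.3 ± 2.7 RPKM. Abcb1a was near the lower end of all genes tested, with 2.14 ± 0.54 RPKM in RNA-seq and 2.29 ± 0.57 in RPF-seq, above only 9.40% and 14.02% of genes. Its estimated number of reads per library, 124 for RNA and 197 for footprints at the median, compares with 29386 and 12910 for Slc22a12, and its replicates differed most, by an SD of 1.24-fold in either assay against 1.05-fold to 1.16-fold for the other 8. Abcb1a also has a close copy, Abcb1b, at 1.95 ± 0.45 RPKM in RNA-seq and 0.969 ± 0.23 in RPF-seq. How reads that match both were assigned is not given in the sources used here, so the values of Abcb1a are uncertain.

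The ratio of footprints to RNA in the same pool, the translation efficiency (TE), set these genes apart from each other. The assays were normalised separately, so a TE is read against other genes, and the median gene had a TE between 0.923 and 0.965 in the 24 pools. Slc22a12 had a TE of 0.309 ± 0.035 (SD, n = 24 pools), with a lowest value of 0.241, a median of 0.305 and a highest of 0.374. It lay below the median gene in 24 of 24 pools and above only 5.83% of all genes tested. The next lowest, Slc47a1, had 0.927 ± 0.074, and its range did not overlap that of Slc22a12.

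The basolateral uptake carriers were at the other end. Slc22a8 had a TE of 2.31 ± 0.17, Slc22a2 of 1.81 ± 0.12 and Slc22a6 of 1.53 ± 0.14, each above the median gene in 24 of 24 pools. They exceeded 97.4%, 91.2% and 82.9% of the genes tested. After a joint quantile normalisation of all 48 libraries, chosen after seeing the data, these shares dropped to 86.7%, 68.7% and 48.2%, whereas Slc22a12 exceeded 1.75% of genes. The low place of Slc22a12 did not depend on this choice, and the high places of Slc22a2 and Slc22a6 did.

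**Figure D2:**
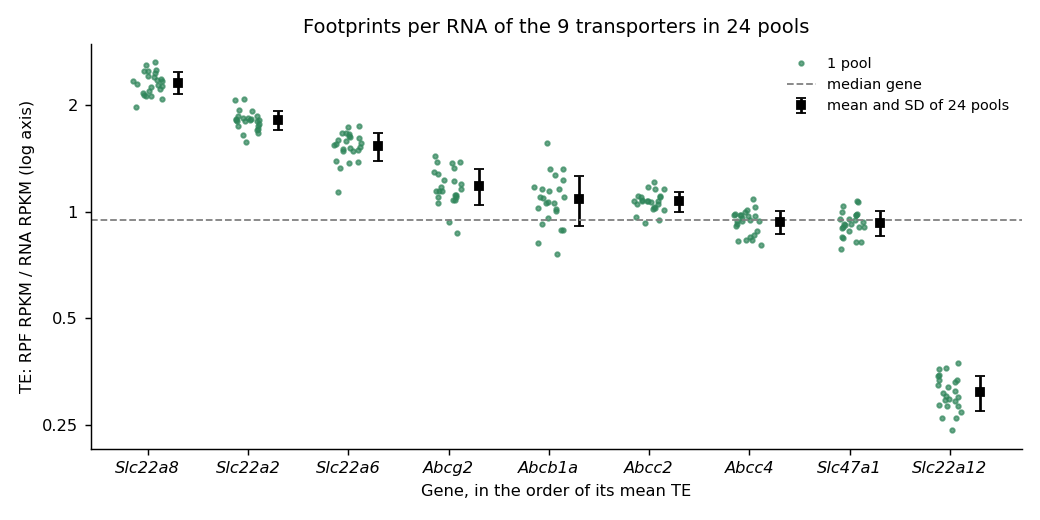
TE, the RPF-seq RPKM divided by the RNA-seq RPKM of the same pool, on a log axis for the 9 transporters, with 1 point per pool, the mean and SD of 24 pools as a square with bars, and the median gene as a dashed line. The 24 pools of Slc22a12 (0.241 to 0.374) lie below those of every other transporter, and the pools of Slc22a8, Slc22a2 and Slc22a6 all lie above the dashed line.

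The pumps had a TE nearer to that of the median gene. Abcg2 had a TE of 1.18 ± 0.14, Abcb1a of 1.09 ± 0.18, Abcc2 of 1.07 ± 0.069 and Abcc4 of 0.934 ± 0.072. Abcb1a and Abcc2 were each the higher of the pair in 12 of 24 pools, as were Abcc4 and Slc47a1. The places of Abcb1a, Abcc2 and Abcg2 depended on the normalisation too. With the joint quantile normalisation Abcb1a exceeded 74.7% of genes instead of 57.9%, Abcc2 28.8% instead of 56.6% and Abcg2 35.7% instead of 64.2%. Abcc4 hardly moved, with 48.7% instead of 47.1%.

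The design asked next whether these levels changed over the day. A 24-h cosine was fitted to log2(RPKM + 0.1) of the 24 libraries of an assay with limma, and p-values were adjusted over all 11863 genes (Benjamini-Hochberg FDR). No transporter of the 9 was called rhythmic by an FDR under 0.05 together with a fitted fold, peak over trough, of 1.5 or more, in RNA-seq, RPF-seq or TE, where 10.2%, 7.58% and 3.74% of all genes were called. The exception among fits that left out a single library was Abcb1a in RNA-seq, described below with its values. By the FDR alone, 5 of 9 passed in RNA-seq (Slc22a8, Slc22a12, Slc47a1, Abcb1a and Abcg2) against 48.6% of all genes, 3 of 9 in RPF-seq (Slc22a8, Abcc2 and Abcg2) against 30.9%, and 2 of 9 in TE (Slc22a6 and Abcg2) against 17.1%. The median fold of the 9 was 1.14 for RNA, 1.16 for footprints and 1.10 for TE, beside 1.20, 1.18 and 1.19 over all genes. Daily changes of these transporters were small, and their share at the FDR alone was near that of all genes.

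**Figure D3:**
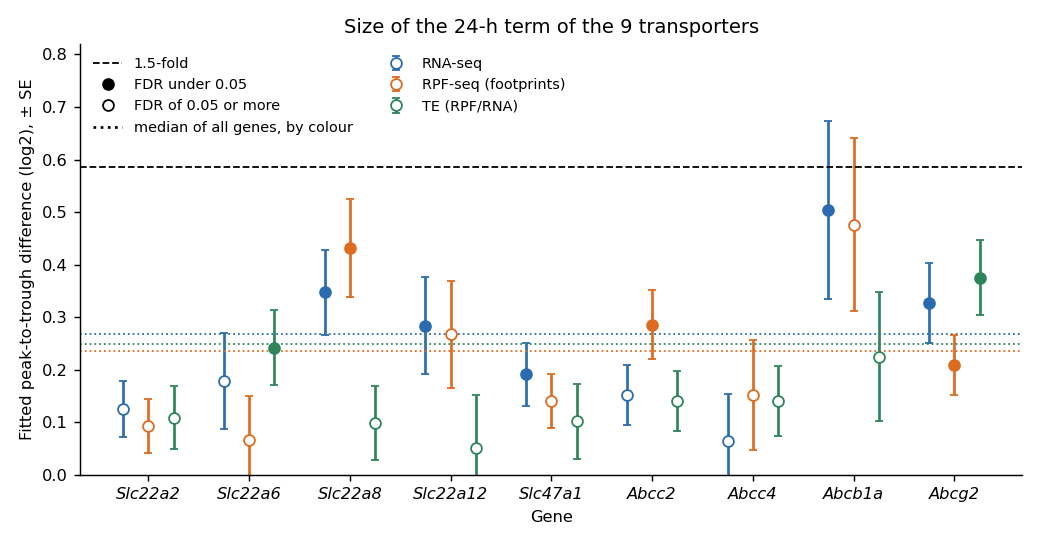
Fitted peak-to-trough difference of the 24-h cosine (log2 scale, ± SE) for the 9 transporters in RNA-seq (blue), RPF-seq (orange) and TE (green), with filled points for an FDR under 0.05. All points lie below the dashed line at 1.5-fold, and the dotted lines give the median of all 11863 genes in each measure.

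Among the organic anion uptake carriers, Slc22a8 followed the same daily course in RNA and in footprints. Its RNA was lowest at ZT6 (230 and 181 RPKM in the 2 pools) and highest at ZT18 (290 and 278 RPKM), and its footprints were lowest at ZT6 (487 and 427 RPKM) and highest at ZT20 (659 and 671 RPKM). Over the 12 dark-phase libraries the RNA level averaged 263 ± 22.3 RPKM against 221 ± 23.3 in the 12 light-phase libraries, and the footprint level averaged 620 ± 55.0 against 499 ± 65.6. The replicates of the lowest and the highest timepoint did not overlap in either assay. These timepoints were picked as extremes, so this is no test, and Slc22a2, without a rhythm past the threshold, showed the same. The fitted fold was 1.27 in RNA-seq (log2 0.35 ± 0.08 SE, FDR 0.00399, peak 17.4 h) and 1.35 in RPF-seq (log2 0.43 ± 0.09 SE, FDR 0.00337, peak 16.9 h), and each passed with any of the 24 libraries left out. Each also passed without the whole of replicate 2 (FDR 0.0207 and 0.0214). Neither passed without replicate 1 (FDR 0.206 and 0.197), where 10.1% and 3.88% of all genes passed. Its TE gave no 24-h term past the threshold (1.07-fold, FDR 0.533). Across the 24 pools its RNA and footprint levels correlated with r = 0.882, higher than for 97.8% of genes (the median gene had 0.318).

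Slc22a6, the other organic anion uptake carrier, lies 6203 bases downstream of Slc22a8 on the same strand (GRCm38 chr19:8591254-8611835 for Slc22a8 and chr19:8618039-8628299 for Slc22a6), yet had no rhythm past the threshold in RNA-seq (1.13-fold, FDR 0.233) or RPF-seq (1.05-fold, FDR 0.812). The levels of the 2 genes correlated with r = 0.33 over the 24 RNA-seq libraries and 0.065 over the 24 RPF-seq libraries. Its RNA ran from 448 to 740 RPKM with a median of 571, and its footprints from 666 to 1014 with a median of 880. The highest and lowest timepoint did not overlap in RNA (740 and 591 RPKM at ZT14, 491 and 528 at ZT2) or in footprints (984 and 919 RPKM at ZT0, 854 and 688 at ZT16). The ratio of the assays did pass, narrowly, with a TE fold of 1.18 (log2 0.24 ± 0.07 SE, FDR 0.0499) and a fitted peak at 1.76 h. TE was highest at ZT0 (1.65 and 1.73) and lowest at ZT14 (1.14 and 1.49), where the first pool had the highest RNA of all 24 libraries, 740 RPKM. The FDR stayed under the threshold in only 5 of 24 fits that left out a pool, and reached 0.102.

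**Figure D4:**
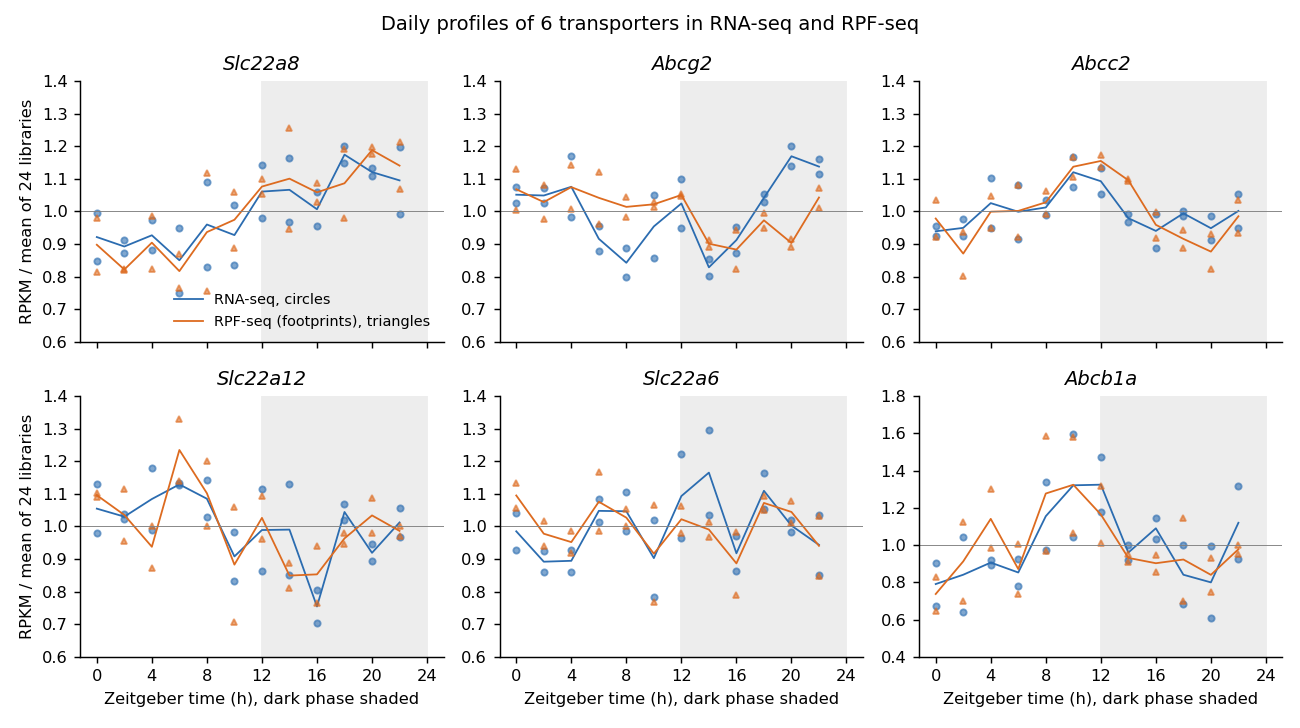
RPKM divided by the mean of the 24 libraries of an assay against Zeitgeber time (h), for 6 transporters, with RNA-seq as blue circles and RPF-seq as orange triangles (1 per pool), lines through the mean of the 2 pools and the dark phase shaded. The 2 curves lie closest for Slc22a8 and Abcc2. The panel of Abcb1a has a wider vertical range than the others. For Abcg2 the RNA rises to its highest level at ZT20 while the footprints there are near their lowest.

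Abcg2 had the largest 24-h difference between footprints and RNA of the 9. Over the 24 pools its RNA and footprint levels correlated with r = 0.346, near the 0.318 of the median gene. Its RNA was lowest at ZT14 (289 and 307 RPKM) and highest at ZT20 (409 and 431 RPKM), a 1.41-fold difference between timepoints picked as extremes. At ZT20 its footprints stood at 383 and 374 RPKM, below all 4 values of ZT4 (422 and 479 RPKM, the highest timepoint) and ZT12 (441 and 440 RPKM). The RNA rhythm had a fold of 1.25 (log2 0.33 ± 0.08 SE, FDR 0.00375) and peaked at 22.6 h ± 0.89, and the footprint rhythm had a fold of 1.16 (log2 0.21 ± 0.06 SE, FDR 0.0222) and peaked at 4.30 h ± 1.06. TE was highest at ZT8 (1.44 and 1.38) and lowest at ZT20 (0.937 and 0.868), with a fold of 1.30 (log2 0.38 ± 0.07 SE, FDR 0.00467) and a peak at 8.34 h ± 0.73. The TE term tests the difference between the profiles directly. It passed with any of the 24 pools left out, as did the RNA rhythm, and the footprint rhythm passed in 23 of 24 fits (FDR 0.0517 without replicate 2 of ZT16). Neither the TE term nor the footprint rhythm passed without the whole of replicate 1 or of replicate 2, which leaves 12 samples of 24. In TE only 0 and 2 of all 11863 genes passed there, and in RPF-seq 3.88% and 17.5%. The TE fold of Abcg2 was then 1.26 and 1.35, and the footprint fold 1.21 and 1.11. Its RNA rhythm passed without replicate 2 only, where 34.9% of all genes passed, beside 10.1% without replicate 1.

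Abcg2 was also the only 1 of the 9 to pass a test of any difference between the 12 timepoints in RNA-seq, with no shape assumed (FDR 0.0136), where 31% of all genes passed. In RPF-seq none of the 9 passed this test by the FDR of limma, where 12.8% of genes did. Abcc2 came nearest (FDR 0.0732) and was the only 1 whose p from the limma test was under the threshold before adjustment.

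Of the conjugate pumps, Abcc2 rose toward the light-to-dark transition. Its footprints were lowest at ZT2 (139 and 163 RPKM) and highest at ZT12 (197 and 203 RPKM), with a fold of 1.22 (log2 0.29 ± 0.07 SE, FDR 0.00574, peak 10.6 h), which passed with any single library left out. This rhythm did not pass without the whole of replicate 1 (FDR 0.235) or of replicate 2 (FDR 0.0698), where 3.88% and 17.5% of all genes passed. Its RNA was highest at ZT10 (189 and 174 RPKM) and lowest at ZT0 (155 and 150 RPKM), with a fold of 1.11 that missed the threshold (FDR 0.0764, peak 9.79 h). The difference between the assays was not past the threshold (TE 1.10-fold, FDR 0.179), so the footprint rhythm is not shown to differ from the RNA profile. Abcc4 gave 1.05-fold in RNA-seq (FDR 0.821) and 1.11-fold in RPF-seq (FDR 0.488), and its RNA pools at the highest and lowest timepoint overlapped.

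The drug pump Abcb1a had the largest fitted folds of the 9, 1.42 in RNA-seq (log2 0.50 ± 0.17 SE, FDR 0.0463, peak 11.3 h) and 1.39 in RPF-seq (log2 0.48 ± 0.16 SE, FDR 0.0744, peak 9.55 h), and the least certain. Its RNA was lowest at ZT0 (1.45 and 1.94 RPKM) and highest at ZT12 (2.52 and 3.15 RPKM), and its footprints were lowest at ZT0 (1.90 and 1.48 RPKM) and highest at ZT10 (2.44 and 3.62 RPKM). The RNA-seq FDR stayed under the threshold in 11 of 24 fits that left out a library. Without replicate 2 of ZT22 the fold was 1.54 (FDR 0.00849), which would be called rhythmic. Its copy Abcb1b had 1.22-fold in RNA-seq (FDR 0.297).

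The urate carrier Slc22a12 had its highest levels in the light phase. Its RNA was highest at ZT6 (1329 and 1322 RPKM) and lowest at ZT16 (946 and 825 RPKM, the lowest of the 24 libraries), and its footprints were highest at ZT6 (481 and 411 RPKM) and lowest at ZT14 (321 and 293 RPKM). The fitted fold was 1.22 in RNA-seq (log2 0.28 ± 0.09 SE, FDR 0.0395, peak 3.90 h) and 1.20 in RPF-seq (log2 0.27 ± 0.10 SE, FDR 0.113, peak 3.22 h). The RNA call held in 14 of 24 fits that left out a library. Its TE had the smallest 24-h fold of the 9, 1.04 (FDR 0.915), and the TE was low at all 12 timepoints, from 0.267 at ZT4 to 0.347 at ZT16 as means of 2 pools.

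The cation carriers had small daily changes. Slc22a2 ran from 209 to 284 RPKM in RNA-seq and from 376 to 480 in RPF-seq, coefficients of variation of 6.60% and 5.91% over 24 libraries, and gave 1.09-fold in RNA-seq (FDR 0.133) and 1.07-fold in RPF-seq (FDR 0.334). Slc47a1, which exports the same cations to the lumen, passed in RNA-seq with 1.14-fold (log2 0.19 ± 0.06 SE, FDR 0.0296, peak 21.3 h), from 365 and 364 RPKM at ZT10 to 439 and 481 RPKM at ZT18. This call held in 19 of 24 fits that left out a library, and its footprints gave 1.10-fold, not past the FDR. The RNA levels of Slc22a2 and Slc47a1 had the highest correlation of any 2 of the 9 over the 24 RNA-seq libraries (r = 0.61), as a description of libraries that also share depth and normalisation.

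Of 10 proximal tubule markers, 7 in RNA-seq and 4 in RPF-seq passed the FDR, beside 48.6% and 30.9% of all genes, and none reached 1.5-fold. Their summed RNA-seq level ran from 46088 to 74561 RPKM, with a median of 49783 in the light phase and 62409 in the dark phase, and Kap, an androgen-regulated kidney gene, made up 82.1% of it. Without Kap the medians were 9524 and 10637 RPKM for RNA, and 17814 and 19180 RPKM for footprints. The part of this in the profiles of the transporters was not tested, and in whole kidney fewer cells of a type and less RNA per cell cannot be told apart.

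Of 49 other renal carriers and pumps of the same kinds, 42 could be tested. By the FDR alone, 31 passed by RNA, 22 by footprints and 12 by TE, and with the 1.5-fold cutoff 5, 4 and 1 were called. Over all genes the shares were 48.6%, 30.9% and 17.1% by the FDR and 10.2%, 7.58% and 3.74% with the cutoff. Their median fold was 1.32 for RNA and 1.26 for footprints, beside 1.20 and 1.18 over all genes. Slc17a4, a phosphate and urate carrier family member of low level (1.54 ± 0.55 RPKM in RNA-seq), had the largest folds, 2.22 in RNA-seq (FDR 0.000255, peak 7.54 h) and 2.16 in RPF-seq (FDR 0.00585). Slc2a9, the basolateral urate exit carrier, had 1.67-fold in RNA-seq (FDR 3.63e-05, peak 12.2 h) and 1.67-fold in RPF-seq (FDR 7.56e-05, peak 11.6 h), and thus crossed the cutoff that Slc22a12, the luminal urate carrier, did not reach.

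Of the anion carrier relatives of Slc22a6 and Slc22a8, Slc22a22, Slc22a28 and Slc22a29 were called in RNA-seq with folds of 1.63 (FDR 4.23e-05, peak 18.1 h), 1.56 (FDR 2.85e-05, peak 22.3 h) and 1.51 (FDR 0.00980, peak 16.7 h), and not in RPF-seq (1.23-, 1.25- and 1.22-fold, FDR 0.0512, 0.0557 and 0.394). The TE term passed the FDR for Slc22a22 (1.38-fold, FDR 0.00512), and not for Slc22a28 or Slc22a29 (FDR 0.161 and 0.488). Slc22a29 was of low level, 2.44 ± 0.61 RPKM in RNA-seq. Some of these carriers are close copies of each other, so reads may be split among them. In RPF-seq, Slc16a9, a carnitine and monocarboxylate carrier, was called with 1.53-fold (FDR 2.08e-08, peak 15.4 h), and Slc51a, a subunit of the basolateral bile acid and steroid carrier, with 1.70-fold (FDR 0.0239, peak 9.53 h). In TE the call was Abcc6 (1.54-fold, FDR 0.00162), named after its values were seen.

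**Figure D5:**
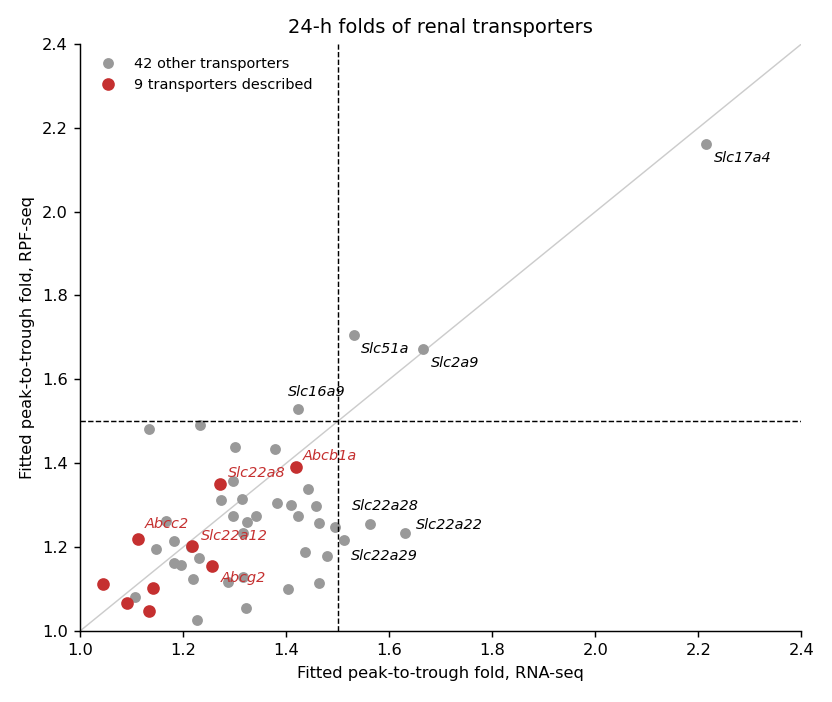
Fitted 24-h peak-to-trough fold in RPF-seq against that in RNA-seq for the 9 transporters (red) and 42 other renal transporters (grey), with dashed lines at 1.5-fold and a grey line of equal folds. The 9 transporters all lie inside both dashed lines, the highest being Abcb1a (1.42 in RNA-seq and 1.39 in RPF-seq), and Slc17a4, Slc2a9 and Slc51a lie beyond both, though the RNA-seq fold of Slc51a did not pass the FDR (0.0540).

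Of 15 transcription factors and scaffold genes known to act on these transporters or on drug metabolism, 14 could be tested. Of these, 5 were called in RNA-seq and 7 in RPF-seq, where 10.2% and 7.58% of all genes were called. The clock-output factors of the PAR bZIP family had the largest RNA-seq folds, 42.1 for Dbp, 2.87 for Tef and 1.81 for Hlf. The bile acid receptor Nr1h4 and the fatty acid receptor Ppara were called in RPF-seq (1.54-fold each, FDR 0.00444 and 5.48e-05), and had 1.37-fold and 1.41-fold in RNA-seq, past the FDR but under the cutoff. The scaffold Pdzk1, which binds several of these carriers at the brush border, was at 870 ± 63.7 RPKM in RNA-seq and 1.10-fold (FDR 0.182).

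Letters known from the sites of such factors were looked up in the promoters, 250 bases before to 50 after each start in RefSeq (GRCm38.p6), which list 8 of the 9 genes. The nuclear receptor half-site (AGGTCA, either strand, as for the other letters) stood in Abcc2 and Abcg2 and in 18.1% of all 27025 genes with a promoter listed, the E-box (CACGTG) in Abcc4 and in 8.09%, and a loose D-box (TTANNTAA, which can overlap a TATA box) in Slc22a8 and in 6.93%. Windows of 30 bases are shown for the carriers whose daily profiles are described above, 5′ to 3′ on the gene's strand, with the matching letters in capitals. A match is a description of letters only.
Slc22a8, loose D-box, chr19:8593140-8593169, plus strand: cagcttatgccTTATATAAggcaccccagg
Abcc2, nuclear receptor half-site, chr19:43782248-43782277, plus strand: gtcaggatgaaAGGTCAggagacttgcctt
Abcg2, nuclear receptor half-site, chr6:58584401-58584430, plus strand: ttcctccaacaAGGTCAtacctcctaatag

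The other genes lie at GRCm38 chr19:6535845-6543032 (Slc22a12, minus strand), chr19:43782192-43840740 (Abcc2), chr17:12584132-12628488 (Slc22a2), chr11:61343401-61378345 (Slc47a1, minus strand), chr14:118482692-118706219 (Abcc4, minus strand), chr5:8660077-8748575 (Abcb1a) and chr6:58584523-58695676 (Abcg2). Their values count reads on coding exons, not on untranslated regions.

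Lastly, the genes whose RNA profile was most like that of each transporter were listed by Pearson r over the 24 RNA-seq libraries, as a description without a test, since all genes share libraries and depth. Abcg2 had the closest matches, Zdhhc6, Dhx36 and Cul1 (r = 0.944, 0.943 and 0.931). Slc22a12 was most like Csad (0.929), the sulfate carrier Slc26a1 (0.896) and Usp5 (0.885). Slc22a8 was most like Aoah (0.900), the peroxisomal oxidase Pipox (0.865) and Ces1f (0.811), and Slc22a6 like Coasy (0.873), Nhp2 (0.862) and Acot11 (0.856). Slc47a1 was most like Sil1, Derl1 and Dera (0.878, 0.878 and 0.866), and Slc22a2 like Gas2, Tmco3 and Soat1 (0.880, 0.784 and 0.766). For Abcc2 the list held March6 (0.838) and Dctn6 (0.794), and for Abcb1a it was Dhtkd1, Adcyap1r1 and Ralgapa2 (0.747, 0.741 and 0.726). Abcc4 was most like Gsta2, Nqo1 and Stra6 (0.725, 0.706 and 0.701), with no daily rhythm past the threshold of its own, and Gsta2 and Nqo1 are detoxification enzymes. In RPF-seq, too, Nqo1 was among the 3 genes most like Abcc4 (0.760).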

How the data were processed

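RNA-seq and RPF-seq libraries were made from the same 24 kidney lysate pools. The deposited values are RPKM per gene over coding sequence: the authors trimmed reads with Cutadapt, kept fragments of the expected size, mapped them with Bowtie2 2.2.1 and TopHat2 2.0.11 to GRCm38.p2, built transcript models with Cufflinks 2.2.1, applied the upper quantile normalisation of edgeR and scaled the reads by coding length and depth. A change in total RNA per cell cannot be seen in such values. The tables start from genes above an RPKM cutoff of the authors, whose value is not given in the sources used here.

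Ensembl IDs were joined to symbols, and the 11863 genes with a median of at least 0.5 RPKM in both assays were tested on log2(RPKM + 0.1) with limma 3.58.1 in R 4.3.3 (lmFit, eBayes with a trend). Rhythms came from the moderated F statistic of both 24-h terms, cosine and sine. The same test on log2 RPF minus log2 RNA of a pool gave TE rhythms, in which error of the RNA value enters with the opposite sign. A second F test compared the 12 timepoints. The FDR is that of Benjamini and Hochberg over all genes tested. Peak times are hours after lights on. The SE is that of the fitted peak-to-trough difference or peak time. RPKM do not suit count models, so none was used, and total depth is unknown. Relative depth was found from low genes with a single annotated coding length, of which 95.7% to 100% (RNA-seq) and 98.0% to 99.6% (RPF-seq) fell within 0.1 read of whole numbers, and reads per gene were estimated from it with the longest GENCODE coding length. The scripts were tested on simulated data.

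The genes and lists were chosen with earlier results of these data known. Named beyond the 9 are the genes of 2 fixed lists called in RNA-seq or RPF-seq (at most 8 per list by RNA-seq fold) and the 3 genes most like each transporter. Abcb1b, Pdzk1, Kap, Cyp2e1, Adipoq, Fabp4 and Abcc6 were named after their values were seen. Some genes that this rule takes are not reported here. Pools are replicates of different mice. Liver samples were not analysed here.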

Additional observations from a re-analysis of the deposited data

Results flagged for a closer look

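The footprint profile differed from the RNA profile of the same pools in 2 of the 9 transporters, by a 24-h term in TE past an FDR of 0.05 (limma), where 17.1% of all genes passed. In Abcg2 this term had a fold of 1.30 (FDR 0.00467), with TE highest at ZT8 (1.44 and 1.38) and lowest at ZT20 (0.937 and 0.868). It passed with any of the 24 pools left out. It did not pass without the whole of replicate 1 or of replicate 2, where 0 and 2 of all 11863 genes passed in TE. In Slc22a6 the term had a fold of 1.18 (FDR 0.0499) and passed in 5 of 24 fits that left out a pool. Timepoints have 2 pools each, too few to look for single pools that stand apart within a timepoint.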

How the results depend on the processing

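No transporter was called rhythmic with the 1.5-fold cutoff, in any of the 3 measures, under the alternatives with all samples or without replicate 1 or replicate 2. Without single libraries the count was also 0, except for 1 (Abcb1a in RNA-seq, 1.54-fold, FDR 0.00849) without replicate 2 of ZT22. At the FDR alone, the number in RNA-seq (5 of 9) was 2 with a 12-h harmonic added (46.6% of all genes), 7 with the AIC choice (70.9%) and 5 with a replicate block (48.7%). It was 0 to 6 without replicate 1, replicate 2 or 1 library (2 without replicate 1 of ZT0 alone). Of all genes 10.1% passed without replicate 1, where the number was 0, and 34.9% without replicate 2, where it was 2. In RPF-seq (3 of 9) the number was 7 with the AIC choice used by the study (59.8% of all genes), 5 with quantile normalisation (29.3%) and 3 with a replicate block (31%). It was 0 to 4 with samples left out. Of all genes 3.88% passed without replicate 1, where the number was 0, and 17.5% without replicate 2, where it was 2. In TE (2 of 9) the number was 1 with a pseudocount of 1 (18.2% of all genes), 1 with no minimum RPKM (15.9%) and 1 with the 12-h harmonic (11.4%). It was 5 with the AIC choice (53.6%), 2 with a replicate block (18.2%), and 0 to 2 with samples left out. Without replicate 1 and without replicate 2, where the number was 0, only 0 and 2 of all 11863 genes passed. Transporters that varied between timepoints in RNA-seq were 2, not 1, with quantile normalisation (29.3% of all genes) and with the replicate block (34.7%). Leaving out a whole replicate leaves 12 samples of 24, and the cause of the other shifts was not tested.

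Of 135 fitted folds under alternatives with all samples, 124 kept their side of the FDR threshold, 7 lost it and 4 gained it (Abcc2 in RNA-seq, and Slc22a12 and Slc47a1 in RPF-seq, with quantile normalisation, and Slc47a1 in RPF-seq with the harmonic), and none moved its peak by over 6 h where it passed. Those that lost it were Slc22a12, Slc47a1 and Abcb1a in RNA-seq and Slc22a6 in TE, each under the harmonic and, for Slc47a1 and Abcb1a, quantile normalisation, and for Slc22a6 a pseudocount of 1. Replicate numbers did not pair the timepoints: the mean correlation of replicate differences between timepoints was 0.029 (RNA-seq), 0.020 (RPF-seq) and 0.036 (TE) over 66 pairs of timepoints.

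With joint quantile normalisation, added after seeing the data, the mean TE was 1.37 for Slc22a2, 1.08 for Slc22a6, 1.78 for Slc22a8, 0.224 for Slc22a12, 0.715 for Slc47a1, 0.812 for Abcc2, 1.09 for Abcc4, 1.48 for Abcb1a and 0.912 for Abcg2. Abcb1a rests on the fewest reads of the 9, a median estimate of 124 for RNA and 197 for footprints.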
